A study of Mus musculus with 3 samples.

Results

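The mouse genes named Trim encode tripartite-motif proteins, most of which are ubiquitin ligases, and several of them act in antiviral and Toll-like receptor signalling. The members were the genes with at least 1 transcript of the protein-coding class and a symbol made of Trim and a number. This gave 68 genes of the 21901 protein-coding genes and of the 55536 genes in the tables. Within the family the symbol chose the genes and no measured value did, but the family was picked with earlier results of these data known.

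The data are RNA sequencing of the chromatin fraction of bone-marrow-derived macrophages from C57BL/6J mice, after depletion of ribosomal RNA. Bone-marrow-derived macrophages are primary cells grown in culture from marrow progenitors. They received Lipid A, which is the moiety of bacterial lipopolysaccharide sensed by Toll-like receptor 4, at 100 ng/ml for 12 h, spent 12 h after washout, and received 100 ng/ml again for 60 min. All 3 libraries, replicates 1, 2 and 3, belonged to this group, and they started from 1000, 250 and 500 ng of RNA. The labels carry the same donor entry for all of them, name separate biosamples, and do not say whether these were separate animals or cultures. Sex and age were not collected. No untreated library belonged to the group, so every value below is a level in cells given Lipid A and not a response to it.

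Tripartite-motif proteins are built from a RING finger, which recruits the ubiquitin-conjugating enzyme, B-box zinc fingers and a coiled coil, followed by a C-terminal domain that differs between subfamilies and often binds the target. Some members lack the RING finger, so the name does not make each of them a ligase. Many genes of the family are induced by type I interferon through the interferon-stimulated response element, a promoter sequence bound by interferon regulatory factors and by the STAT complex. In macrophages, members act on nucleic acid sensors, on the kinases downstream of Toll-like receptors and on retroviral capsids.

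Promoters of interferon-inducible members are shown first, and the 6 printed were chosen because they carry the core of that element. RefSeq windows of 300 bases (build GRCm38.p6, 250 bases before and 50 from the start) matched 53 of the 68 members. The core of the element was searched as GAAA, any 2 bases and GAAA again, on either strand and with overlapping matches counted. It was in a window of 9 of 53 members, or 17.0%, against 3.99% of 27025 genes with a window. It was in 8 of 15 members of the interferon-inducible list with a window, and in 1 of the 38 others, Trim2. A match is a run of letters and not a measured binding site. In the 6 windows below, read 5′ to 3′ on the gene's own strand, capitals mark the core. They are Trim30a on the minus strand at chr7:104465144-104465443, Trim30d on the minus strand at chr7:104507800-104508099 and Trim12a on the minus strand at chr7:104315446-104315745. Trim5 follows on the minus strand at chr7:104288057-104288356, then Trim21 on the minus strand at chr7:102565433-102565732 and Trim26 on the plus strand at chr17:36836896-36837195.
Trim30a: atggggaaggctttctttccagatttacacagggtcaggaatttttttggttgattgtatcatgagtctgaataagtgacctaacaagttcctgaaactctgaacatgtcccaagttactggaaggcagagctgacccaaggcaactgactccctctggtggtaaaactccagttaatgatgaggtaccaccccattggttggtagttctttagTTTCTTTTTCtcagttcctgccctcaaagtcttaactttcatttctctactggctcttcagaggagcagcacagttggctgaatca
Trim30d: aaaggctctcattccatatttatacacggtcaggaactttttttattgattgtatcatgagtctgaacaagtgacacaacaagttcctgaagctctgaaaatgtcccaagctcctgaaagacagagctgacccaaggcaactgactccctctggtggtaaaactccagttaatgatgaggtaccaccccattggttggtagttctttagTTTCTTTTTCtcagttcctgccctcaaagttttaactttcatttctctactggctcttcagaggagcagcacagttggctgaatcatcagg
Trim12a: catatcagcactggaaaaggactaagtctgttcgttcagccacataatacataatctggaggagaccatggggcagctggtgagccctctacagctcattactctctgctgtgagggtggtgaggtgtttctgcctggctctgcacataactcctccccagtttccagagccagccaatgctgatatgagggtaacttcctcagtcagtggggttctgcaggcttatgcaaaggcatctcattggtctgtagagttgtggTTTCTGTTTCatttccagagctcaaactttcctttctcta
Trim5: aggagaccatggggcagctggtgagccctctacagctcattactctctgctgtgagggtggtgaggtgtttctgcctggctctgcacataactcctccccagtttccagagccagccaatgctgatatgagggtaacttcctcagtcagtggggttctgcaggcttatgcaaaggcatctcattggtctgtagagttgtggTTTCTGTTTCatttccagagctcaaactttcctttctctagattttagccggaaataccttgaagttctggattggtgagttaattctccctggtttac
Trim21: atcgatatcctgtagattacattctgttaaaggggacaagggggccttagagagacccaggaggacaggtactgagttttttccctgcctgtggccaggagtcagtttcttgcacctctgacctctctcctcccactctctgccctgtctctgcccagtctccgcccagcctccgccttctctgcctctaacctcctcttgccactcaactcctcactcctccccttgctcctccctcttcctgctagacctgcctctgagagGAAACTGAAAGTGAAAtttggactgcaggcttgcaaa
Trim26: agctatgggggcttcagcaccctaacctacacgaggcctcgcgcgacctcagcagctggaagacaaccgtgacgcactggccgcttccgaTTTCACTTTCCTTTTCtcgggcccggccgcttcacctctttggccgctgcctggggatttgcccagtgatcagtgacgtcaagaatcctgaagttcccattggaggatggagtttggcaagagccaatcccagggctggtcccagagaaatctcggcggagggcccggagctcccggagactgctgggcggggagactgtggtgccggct

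The core began 36 bases before the annotated start in Trim30a and 41 bases before it in Trim30d, and those 2 windows were 90.8% identical in a global alignment. In Trim5 it began 49 bases before the start and in Trim12c 29 bases before, and the windows of this pair were 82.8% identical. Trim12a and Trim34a carried it 11 bases after the start, and Trim21 had 2 overlapping matches, 14 and 20 bases after. Trim26 had 2 overlapping matches as well, 160 and 154 bases before the start. A second annotated start of Trim30a, in a window beginning at position 104446076 of chromosome 7, carried the core 3 bases after it. The windows of Trim25, Trim56, Trim30b, Trim30c, Trim6, Trim34b and Trim38 held no match, which says only that these letters are not in those windows. The Trim30b window, chr7:104358597-104358896, lies inside that minus-strand gene, which runs over chr7:104355382-104369884. The sequence before the outermost annotated start of Trim30b was thus not searched. The core of the element bound by PU.1, the myeloid factor encoded by Spi1, was searched as GAGGAAGT on either strand. It was in a window of 5 of 53 members, or 9.43%, against 3.69% of all genes with a window, and these were Trim2, Trim24, Trim5, Trim12a and Trim12c. The end of the Trim12a window repeats the start of the Trim5 window letter for letter, and it was 72.9% identical to that of Trim12c. Matches in such copies, and in Trim30a and Trim30d, are not independent, so the member shares of both motifs are descriptions only.

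**Figure D1:**
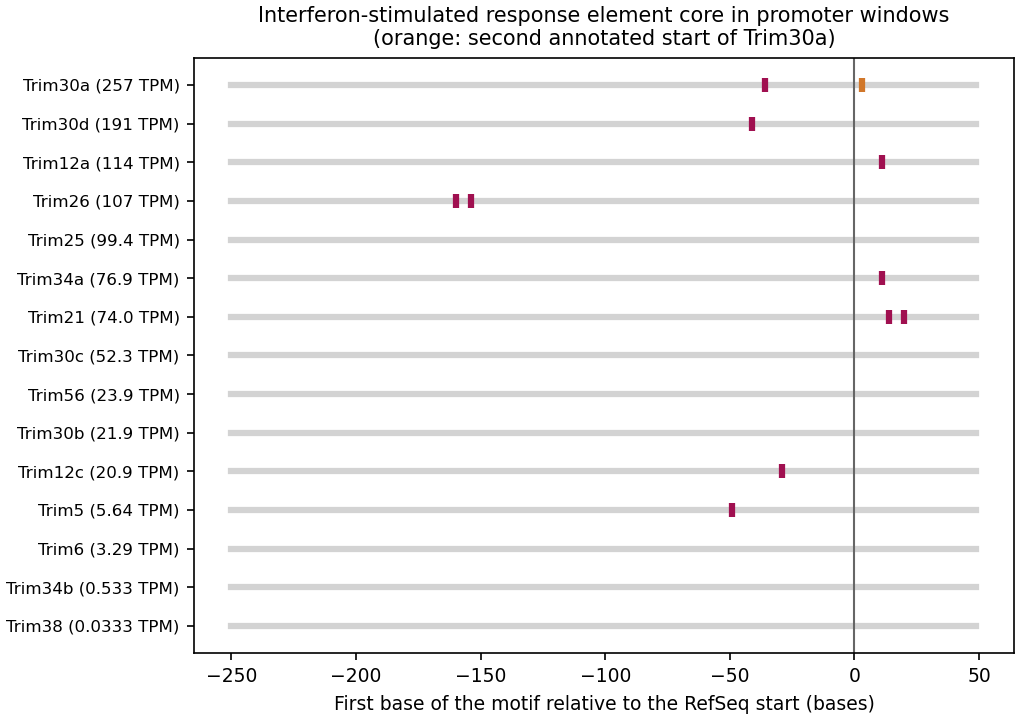
Place of the interferon-stimulated response element core in the RefSeq promoter windows of the 15 interferon-inducible TRIM genes with a window, from the highest mean TPM at the top. The x axis is the distance in bases from the annotated start to the first base of the match; grey bars are the windows, and 8 genes carry a match. The Trim30b window lies inside the gene as annotated.

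Sequencing gave 12602702, 17222239 and 17042691 expected counts on genes in replicates 1, 2 and 3. A gene was called undetected when it had at most 3 expected counts in every library, which is 0.238, 0.174 and 0.176 when scaled to a common library size (CPM). The macrophage label held in all 3 libraries, since none of the 10 macrophage markers was undetected and their counts summed to 52099, 58852 and 44469. All neutrophil, B cell and erythroid markers were undetected, and of 7 T and NK cell markers Cd4 alone was detected. The 11 markers of fibroblasts and stroma separated replicate 2 from the others, with a summed count of 5 in replicate 1, 44693 in replicate 2 and 109 in replicate 3. Replicate 2 also had the highest median level over detected protein-coding genes, 5.89 TPM, against 2.69 in replicate 1 and 3.23 in replicate 3. The part that these differences played in the levels of TRIM genes was not tested, and in bulk RNA fewer cells of a type and less RNA per cell cannot be told apart.

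RNA of 49 of the 68 TRIM genes was detected in at least 1 library. The other 19 were undetected, where the undetected share of all protein-coding genes was 37.0%. Trim72, with 1, 4 and 0 expected counts, and Trim75, with 3, 8 and 2, passed the floor in replicate 2 alone. That is the library with stromal RNA, and the part of that RNA in their detection was not tested. At a level of at least 1 TPM in every library were 34 members, where the share over all protein-coding genes was 39.1%. At least 10 TPM in every library was reached by 15 members (16.8% of protein-coding genes) and at least 100 TPM by 4 (2.16% of protein-coding genes). The median TPM was 1.50 ± 0.553 over the members and 0.507 ± 0.393 over all protein-coding genes (SD over 3 libraries). TPM (transcripts in a fixed total per library) divides counts by transcript length, so the order of genes depends on the transcripts to which counts are assigned. Trim21 had a mean of 74.0 TPM and 71.9 CPM, and Trim56 23.9 TPM and 162 CPM. By CPM, 14 of the 15 highest members were the same. Together the members made up 0.423 ± 0.0312% of the TPM of protein-coding genes. Of that RNA, 34.7 ± 3.61% came from Trim30a and Trim30d alone.

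**Figure D2:**
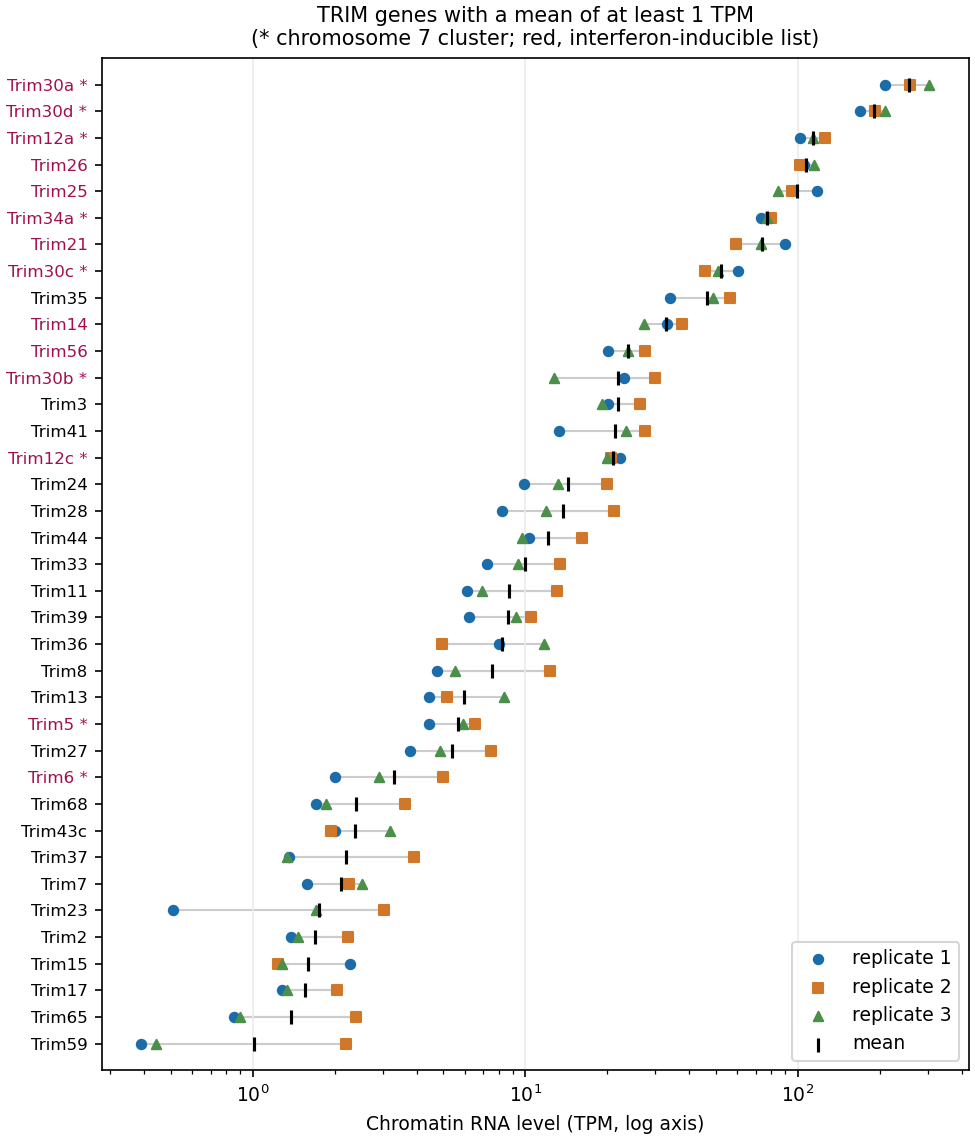
Levels of the 37 TRIM genes with a mean of at least 1 TPM, highest at the top, on a log axis. Points are the 3 libraries and black bars their mean; gene names in red belong to the interferon-inducible list and stars mark the chromosome 7 cluster. The points of neighbouring genes overlap along most of the order.

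Most genes of the interferon-inducible list stood near the top of the order. The list holds members known from other work to be induced by interferon, and it was drawn up with earlier results of these libraries known. Of its 16 genes, 14 were at 1 TPM or more in every library and 12 at 10 TPM or more, against 20 and 3 of the 52 other members. Its median TPM was 42.5 ± 3.97, against 0.615 ± 0.409 for the other members. The mean of log2(TPM + 1) was higher in the list by 3.72, 3.48 and 3.58 in replicates 1, 2 and 3, or 3.59 ± 0.12 (SD, n = 3). This difference was positive in 3 of 3 libraries and is a description, with no test.

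Most TRIM RNA came from a cluster of 10 TRIM genes on chromosome 7. The cluster runs from Trim6 to Trim30d, chr7:104218793-104507849 in mm10, over 289 kb, and holds 18 annotated genes, of which the 10 members are the only ones with a protein-coding transcript. It contributed 56.3, 56.5 and 60.2% of all member TPM in replicates 1, 2 and 3, or 57.7 ± 2.20% (SD, n = 3). All 10 genes were detected, 9 were at 1 TPM or more in every library, and the median was 38.3 ± 3.23 TPM. Within 300 kb on each side lay 31 other protein-coding genes, of which 27 were undetected. Of these 31, 25 were olfactory receptor genes, and 21 of the 25 were undetected.

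Trim30a had the highest level of all members, with 209, 259 and 304 TPM in replicates 1, 2 and 3, on 9329, 9568 and 12858 expected counts. Its mean of 257 ± 47.5 TPM ranked 184 among protein-coding genes. In mice Trim30a is known as a brake on NF-κB signalling from Toll-like receptors, through loss of the adaptors TAB2 and TAB3. Its neighbour Trim30d followed with 169.8, 192 and 209 TPM. The ranges of the pair overlapped, though Trim30a was higher in 3 of 3 libraries. Trim30c, another tandem copy, had 60.5, 45.6 and 50.8 TPM, and Trim30b 23.1, 30.0 and 12.7 TPM. The 4 copies, which lie side by side on the minus strand, thus ranged in mean from 21.9 to 257 TPM.

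The relatives of primate TRIM5, a factor that binds incoming retroviral capsids, also differed among themselves. Trim12a had 102, 126 and 114 TPM, Trim12c 22.2, 20.6 and 20.0 TPM, and Trim5 itself 4.45, 6.55 and 5.91 TPM. The 3 ranges did not overlap. Trim34a had 73.6, 80.0 and 77.2 TPM and Trim34b 0.500, 0.640 and 0.460 TPM, so that the levels of this similar pair stood far apart. Trim34a also varied least between libraries of all members with a mean of at least 5 TPM, with a coefficient of variation of 4.20%. Trim6, whose human counterpart makes free ubiquitin chains that activate the kinase IKKε, had 2.00, 4.97 and 2.90 TPM.

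**Figure D3:**
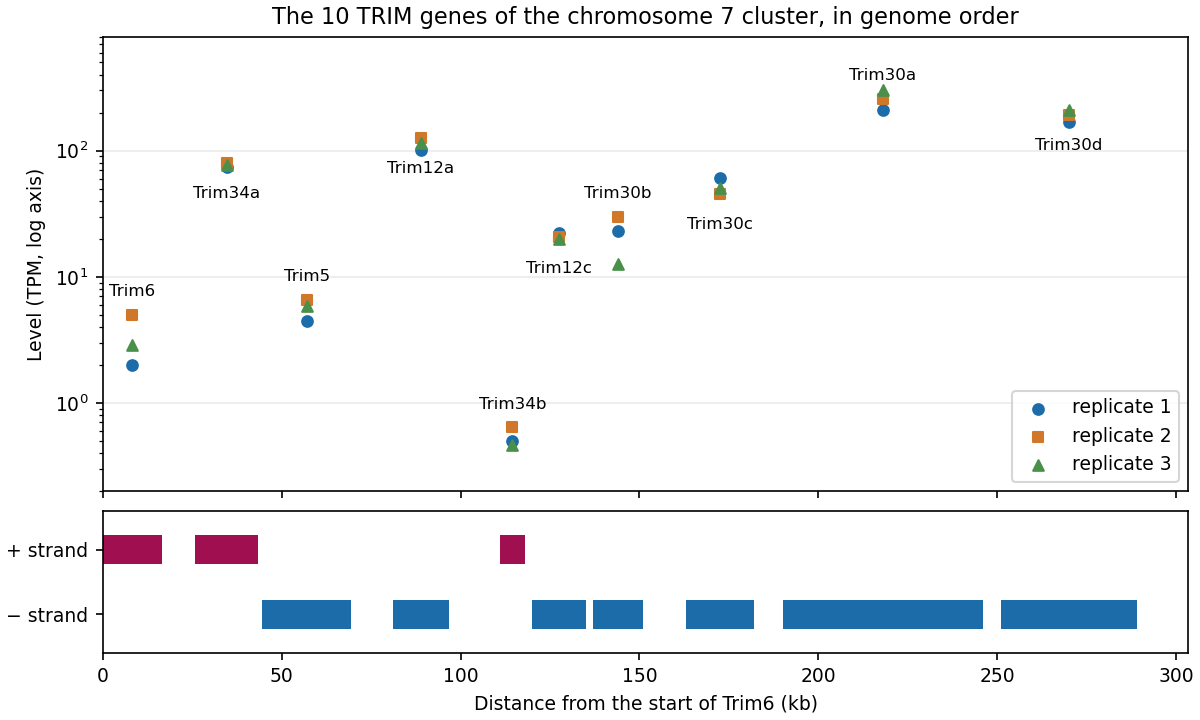
TRIM genes of the chromosome 7 cluster by distance in kb from the start of Trim6. The upper panel shows TPM in each library on a log axis, and the lower panel the extent and strand of each gene. Trim30a and Trim30d at the right end were highest, and Trim34b was lowest with a mean of 0.533 TPM.

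Copies this similar can exchange reads. The share of 31-base words that a gene's transcripts had in common with other genes was 13.9% in the median of the cluster members and 1.14% in that of the other members. It was highest in the cluster for Trim34b (69.0%) and Trim34a (68.5%), followed by Trim5 (53.3%) and Trim12c (48.1%). With other members alone the share was 69.0% for Trim34b, 48.8% for Trim34a, 44.1% for Trim5 and 43.5% for Trim12c. For Trim30a and Trim30d the share with any other gene was 11.9% each. Of 49 detected members, 12 had expected counts that were not whole (tolerance 0.005), which is how divided reads appear in these tables. The size of the difference between Trim34a and Trim34b, and between Trim5 and Trim12c, is therefore uncertain.

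The 6 interferon-inducible members outside the cluster had a median of 53.4 ± 7.13 TPM, with ranges that overlapped those of the cluster genes. Trim26, a ligase reported to act on induction of interferon-β, had 105, 102 and 115 TPM. Trim25, which ubiquitinates the RNA sensor RIG-I, had 118, 95.6 and 84.9 TPM and was highest in replicate 1. Trim21, a cytosolic receptor for the Fc part of antibodies, had 89.9, 59.2 and 73.0 TPM.

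Trim14, an adaptor at the mitochondrial antiviral protein MAVS that lacks a RING finger, had 33.2, 37.7 and 27.3 TPM. Its exons overlap those of Nans on the opposite strand over 31.3% of their length, and Nans had 179, 192 and 99 counts. The strand setting of the counting is not given in the sources used here, so reads of Trim14 and Nans cannot be told apart in that stretch. Trim56, a ligase of the cytosolic DNA-sensing pathway, had 20.2, 27.6 and 23.9 TPM. Trim38, known to restrain Toll-like receptor signalling, was the only undetected gene of the list, with 0, 1 and 1 expected counts, and Trim34b was the other gene of the list below 1 TPM.

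The wider list of members that act in innate signalling held 15 genes, 13 of them detected, with a median of 5.82 ± 1.56 TPM. Besides the genes above, Trim3, an NHL-repeat protein, had 20.1, 26.4 and 19.2 TPM. Trim8, which acts on the kinase TAK1 downstream of tumour necrosis factor, had 4.76, 12.3 and 5.54 TPM. It was the most variable member with a mean of at least 5 TPM, at a coefficient of variation of 55.2%, and its value in replicate 2 stood above the other 2. Trim65, a ligase of the RNA sensor MDA5, had 0.850, 2.40 and 0.900 TPM. Trim31 and Trim38 were the 2 undetected genes of this list.

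The transcription cofactors of the family, which join a PHD finger to a bromodomain, lay at moderate levels. Trim28, the corepressor recruited by KRAB zinc-finger proteins to silence endogenous retroviruses, had 8.18, 21.2 and 11.9 TPM, and Trim24, a cofactor of nuclear receptors, 9.89, 19.9 and 13.2 TPM. Trim33, which acts with SMAD proteins, had 7.24, 13.4 and 9.38 TPM. All 3 were highest in replicate 2, the library with stromal RNA, and the part of that RNA in the difference was not tested. Trim66, the remaining gene of the subfamily, had a mean of 0.150 TPM.

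Among members outside these lists, Trim35 was the highest. It was first described as a hematopoietic lineage-switch gene and had 33.9, 56.2 and 49.0 TPM, on 1102, 1778 and 1740 expected counts. Trim41 had 13.3, 27.5 and 23.4 TPM. Trim11, among the 3 most variable members with a mean of at least 5 TPM, had 6.10, 13.1 and 6.96 TPM and was highest in replicate 2. Along the order of all 37 members with a mean of at least 1 TPM, the ranges of 33 of 36 neighbouring pairs overlapped, and 12 pairs kept their order in all 3 libraries. The ranges were apart between Trim30d and Trim12a, between Trim25 and Trim34a, and between Trim12c and Trim24.

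Members known from other tissues were mostly undetected. Of 25 such genes, 16 were undetected, where the share over all protein-coding genes was 37.0%. At 1 TPM or more in every library were 4 (39.1% of protein-coding genes), and 0 were at 10 TPM or more (16.8% of protein-coding genes). Undetected were 3 of 4 muscle genes, Trim54, Trim55 and Trim63, the last being the atrophy-linked ligase MuRF1, and the fourth, Trim72, had 1, 4 and 0 counts. Also undetected were 2 of 2 erythroid genes (Trim10 and Trim58), 2 of 3 neuronal genes (Trim9 and Trim67), 3 of 4 epithelial genes (Trim29, Trim31 and Trim40) and 6 of 12 genes of testis and early embryo (Trim42, Trim43b, Trim60, Trim61, Trim71 and Trim80). Trim75, also of this last list, was among the 3 lowest detected members, with 3, 8 and 2 counts. The 4 genes at 1 TPM or more were Trim36, Trim43c, Trim17 and Trim15. Trim36, a testis gene, ranged between 4.94 TPM in replicate 2 and 11.7 TPM in replicate 3. Exons of Trim43c overlap the transcript 9330159M07Rik on the opposite strand over 38.6% of their length, and 19.0% of those of Trim17 lie in Hist3h2a. The remaining undetected members were Trim38, Trim50 and Trim52. In the second deposited quantification, of kallisto layout, Trim63, Trim43b, Trim67, Trim9, Trim71 and Trim58 had more than 3 estimated counts in every library.

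Family members under other symbols, and the enzymes that feed these ligases, were present as well. Pml, the organizer of nuclear bodies, had 128, 95.1 and 70.7 TPM, and Mefv, the pyrin inflammasome sensor, had 87.0, 62.0 and 65.4 TPM. Mid1, a microtubule-bound ligase, had 84.8, 85.0 and 65.9 TPM, and its mean was 334 TPM in the kallisto layout against 78.5 TPM in the gene tables. Of 15 genes for ubiquitin, its activating enzymes and the conjugating enzymes used by the family, 15 were at 1 TPM or more in every library, and their median was 18.5 ± 5.34 TPM. Ube2d3, a general conjugating enzyme, had 122, 176 and 182 TPM. Ube2n, which builds lysine-63 chains, had 47.7, 48.2 and 49.4 TPM, and Ube2d1 was lowest with 2.67, 5.89 and 4.09 TPM.

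Between libraries, TRIM genes followed the shift of protein-coding genes toward replicate 2, the cluster and other interferon-inducible members less so. Summed TPM of protein-coding genes was 268051, 350469.8 and 300461 in replicates 1, 2 and 3, within a total that TPM fixes per library. The part of this larger protein-coding share in the ratios below was not tested. Of the 37 members with a mean of at least 1 TPM, 25 were highest in replicate 2, or 67.6%, against 77.1% of 9994 protein-coding genes. The median log2 ratio of replicate 2 over the mean of the other 2 libraries was 0.43 in members and 0.62 in protein-coding genes. It was 0.09 over the 9 cluster members and 0.59 over the 28 members outside the cluster. Detected interferon-inducible members outside the cluster had low ratios as well. These were -0.11 in Trim26, -0.08 in Trim25, -0.46 in Trim21, 0.32 in Trim14 and 0.33 in Trim56. A weaker shift was therefore not particular to the cluster. Trim21, Trim30c and Trim36 were among the members that were lowest in replicate 2. The median coefficient of variation was 22.6% over the 26 members with a mean of at least 5 TPM and 29.3% over 6360 protein-coding genes. These are descriptions of 3 libraries, and the difference between the sets was not tested.

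Chromatin RNA can hold transcripts that are not yet spliced, and the annotation lists transcripts with a retained intron as a class of their own. Their TPM was compared with that of the protein-coding transcripts of the same gene in each library. Over all members, transcripts of the retained-intron class held 17.7 ± 0.579% of the TPM and protein-coding transcripts 75.1 ± 1.00% (SD, n = 3). Over all protein-coding genes these shares were 36.7 ± 1.41% and 50.5 ± 2.10%. The annotation gives no retained-intron transcript for 46 of the 68 members. Both classes were annotated for 22 members and for 9120 of the 21901 protein-coding genes. Genes without a retained-intron transcript are thus in the shares of both sets.

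Gene by gene, limma tested the log2 ratio of the classes against 0 in 4311 genes with both, at a summed mean of at least 5 TPM, and 12 members entered. At an adjusted p under 0.05 the retained-intron class was higher in 4 members and in 24.3% of all genes tested. The protein-coding class was higher in 5 members and in 25.6% of all genes tested. Which class was higher thus differed between members, and nothing particular to the family is read from these counts.

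In these tables the largest excess of the protein-coding class among members was in Trim30a. Its retained-intron transcript had 23.9, 48.6 and 39.6 TPM in replicates 1, 2 and 3, against 175, 204 and 254 TPM for its protein-coding transcript Trim30a-201. The ranges did not overlap, and the log2 ratio was -2.54 (SE 0.25, limma with Benjamini-Hochberg adjustment, adjusted p = 0.00426). The retained-intron transcript is 314 bases long and Trim30a-201 3771 bases. With CPM from expected counts, which leaves out length, the log2 ratio was -7.60. Trim35 had 8.58, 15.9 and 12.0 TPM in the retained-intron class and 25.3, 40.3 and 37.0 TPM in the protein-coding class, a log2 ratio of -1.50 (SE 0.20, limma, adjusted p = 0.00725). Trim12a (log2 ratio -1.27), Trim30b (-0.99) and Trim39 (-0.83) also passed in this direction.

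Trim26 lay on the other side. Its retained-intron transcripts had 43.9, 41.3 and 49.5 TPM, against 14.3, 16.2 and 14.96 TPM for its protein-coding ones. The log2 ratio was 1.56 (SE 0.20, limma, adjusted p = 0.00705). A further 43.8 ± 0.418% of the TPM of Trim26 was in Trim26-209, which the annotation classes as a processed transcript, so that the protein-coding class was the smallest of the 3. Trim21 had 69.0, 39.7 and 49.98 TPM in the retained-intron class and 20.9, 19.5 and 23.0 TPM in the protein-coding class, with a log2 ratio of 1.29 (SE 0.24, limma, adjusted p = 0.0152).

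Trim28 had the largest ratio and the widest spread. Its retained-intron class had 5.58, 12.6 and 7.67 TPM and its protein-coding class 0.610, 6.37 and 1.46 TPM, and the log2 ratio was 2.10 (SE 0.44, limma, adjusted p = 0.0206). The gap was narrowest in replicate 2. Trim3 followed with a log2 ratio of 1.17. Trim24, Trim27 and Trim33 did not pass, with log2 ratios of 0.30, 0.19 and 0.13 and adjusted p of 0.269, 0.705 and 0.734 by limma.

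**Figure D4:**
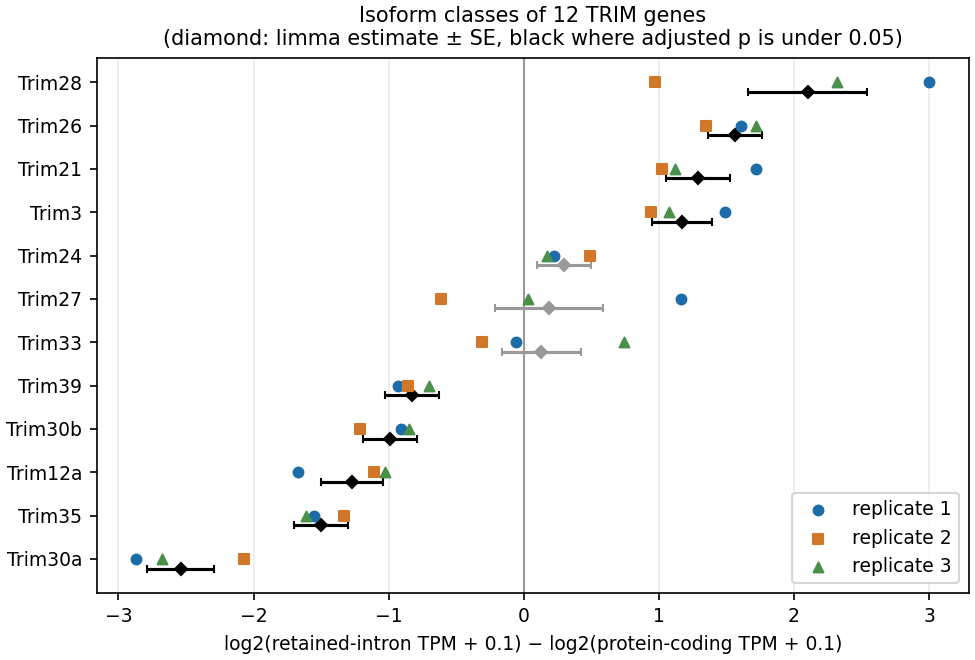
log2 ratio of retained-intron over protein-coding TPM, each plus 0.1, for the 12 TRIM genes tested. Coloured points are libraries; diamonds are the limma estimate with its SE, black where the adjusted p is under 0.05 and grey where it is not. Trim28, Trim26, Trim21 and Trim3 lie right of 0, and Trim39, Trim30b, Trim12a, Trim35 and Trim30a left of it.

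These calls rested on 3 libraries and on the quantification. Without replicate 3, 0 members passed for the retained-intron class and 1, Trim30a, for the protein-coding class, by the same limma test. Without replicate 1 the counts were 2 and 3, and without replicate 2 they were 4 and 3. In the tables of kallisto layout the ratio of Trim26 was 0.18 (limma, adjusted p = 0.505) and that of Trim39 was 0.03 (adjusted p = 0.873), so neither passed. Trim24 passed there for the retained-intron class, at 0.97 (limma, adjusted p = 0.00737). Trim30a was at -0.87 (limma, adjusted p = 0.0337) in that layout, closer to 0 than Trim30b at -2.79, Trim35 at -1.67 and Trim12a at -1.19. When CPM from expected counts replaced TPM, which leaves out length, the sign turned for Trim28, Trim21, Trim3 and Trim12a among the members called.

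Among genes without a retained-intron transcript, isoform levels differed between libraries in Trim25 and Trim12c, for example. The shorter coding transcript Trim25-202 had 59.0, 31.2 and 20.2 TPM in replicates 1, 2 and 3, while the longer Trim25-203 had 58.6, 64.4 and 64.7 TPM. In the gene-table layout the spread of Trim25 was thus in the shorter transcript. In the kallisto layout Trim25-202 had 107, 67.4 and 58.4 TPM and Trim25-203 50.4, 42.8 and 46.9 TPM, so that the shorter one was higher in every library. In the gene-table layout Trim12c-202 held 39.1, 4.95 and 0% of the TPM of Trim12c, and Trim12c-201 the rest. In the kallisto layout Trim12c-202 was present in every library. It had 19.6 TPM in replicate 1 and 7.22 TPM in replicate 3 there, against 12.6 and 19.8 TPM for Trim12c-201. The absence of Trim12c-202 from replicate 3 was thus seen in the gene-table layout only. Trim12c can exchange reads with its copies, as described above, and the part of this in its isoform levels was not tested. Trim30d divided between Trim30d-201, with 59.9 ± 3.87% of the gene's TPM, and Trim30d-202, with 40.0 ± 3.93%.

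The deposited tables of kallisto layout gave a second measure of every level. The same 14 genes were among the 15 highest members in both, and the cluster held 57.5 ± 0.929% of member TPM there. The largest disagreement was Trim52, at 25.3 TPM in the kallisto layout and 0.00667 TPM in the gene tables. All of it lay in Trim52-202, a processed transcript of 584 bases, with 20.2, 28.7 and 27.1 TPM, and its coding transcript had a mean of 0.00601 TPM. The 6 detected members with the largest ratio of kallisto layout over gene table were Trim34b at 4.48-fold, Trim65 at 3.95-fold, Trim6 at 2.72-fold, Trim37 at 2.11-fold, Trim30b at 2.10-fold and Trim2 at 1.67-fold. Trim14 was 1.52-fold higher in the kallisto layout. Which of the tables is nearer to the RNA was not tested.

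**Figure D5:**
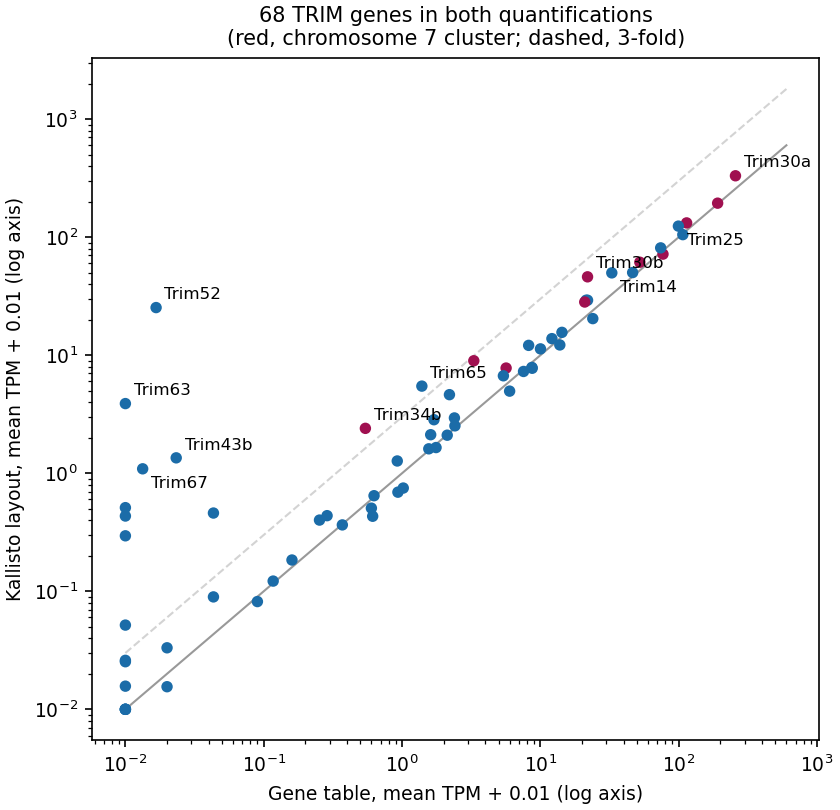
Mean TPM of the 68 TRIM genes in the gene tables (x axis) and in the tables of kallisto layout (y axis), each plus 0.01, on log axes. The solid line is equality and the dashed line a 3-fold higher value in the kallisto layout. Most genes lie near equality, and Trim52 and Trim63 lie far above it.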

How the data were processed

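Chromatin-fraction RNA of 3 libraries from 1 group was analysed. The authors deposited expected counts for genes and transcripts in RSEM layout, made on mm10 and GENCODE M21 per the labels and file notes. TPM values were deposited by the authors beside them, and the authors also deposited transcript tables of kallisto layout. Which aligner and strand setting were used is not given in the sources used here, nor are tool versions. Rows naming no gene held 1.94, 0.269 and 0.386% of expected counts in replicates 1, 2 and 3 and were left out. The floor of 3 counts covers counting error only, while each SD and SE covers spread between the 3 libraries.

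Levels are the deposited gene TPM, averaged over 3 libraries with their SD. The pseudocount was 1 for the list contrast and 0.1 for isoform ratios. limma 3.58.1 in R 4.3.3 tested isoform ratios, two-sided, with Benjamini-Hochberg adjustment over 4311 genes. The labels do not name separate animals or cultures, so its p-values cover only spread between these libraries, which may be technical. The isoform test was also run on simulated data, in which far fewer genes differed between the classes than were called here. That run does not vouch for the calls above, least of all for small log2 ratios. Pairs of libraries differed beyond counting noise, with chi-square per gene of 61.5 to 102. Promoter windows came from RefSeq (GRCm38.p6) and were matched by symbol, and 31-base words from M21 transcripts. Tables were handled with Python 3.11.15, pandas 2.3.3, numpy 2.4.6 and Biopython 1.88.

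Named members were the 15 highest, every detected gene of the interferon-inducible, PHD-bromodomain and chromosome 7 lists, and every member called in the isoform test. Also named were the 3 lowest detected members, the 3 most and 3 least variable with a mean of at least 5 TPM, members over 3-fold apart between tables, and all undetected members. Others, such as Trim36, Trim43c, Trim17, Trim15, Trim27, Trim37 and Trim2, and the transcripts named, were named after their values were seen. The members and lists were chosen with earlier results of these data known. Other settings tried were 7 for levels and 8 for isoforms.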

Additional observations from a re-analysis of the deposited data

Results flagged for a closer look

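Of the 19 TRIM genes called undetected in the gene tables, 7 had more than 3 estimated counts in every library in the tables of kallisto layout, which the comparisons of levels did not use. Trim52 stood highest there at a mean of 25.3 TPM, with 169, 260 and 236 estimated counts in replicates 1, 2 and 3. Trim63, a muscle gene, had a mean of 3.88 TPM, with 56, 100 and 108 estimated counts. Trim43b, a gene of the early embryo, had 1.34 TPM, and it can exchange reads with its copies Trim43a and Trim43c. Trim67, a neuronal gene, had 1.08 TPM. Trim9, which is neuronal as well, had 0.501 TPM. Trim71, a stem-cell gene, had 0.424 TPM, and the erythroid gene Trim58 had 0.285 TPM. No control library was analysed here, and the cause of the difference between the tables was not tested.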

How the results depend on the processing

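The count of members at 1 TPM or more in every library stayed within 1.5 times its value under every setting tried. The median over members, 1.50 TPM, was 2.45 TPM in the kallisto layout, 3.06 CPM, which leaves out length, and 4.79 TPM when rescaled over protein-coding genes. Leaving out a library gave 1.19 to 1.71 TPM. The interferon-inducible contrast, 3.59, was 3.35 with posterior mean TPM, 4.12 with CPM, 4.33 when rescaled, 4.93 with a pseudocount of 0.1 and 2.86 over members with a mean of at least 1 TPM. Leaving out a library gave 3.53 to 3.65. Genes with the retained-intron class higher (limma, adjusted p under 0.05) numbered 1049, but 1810 in the kallisto layout and 351 to 901 with a library left out. Genes with the protein-coding class higher numbered 1104, but 2856 with CPM and 473 to 849 with a library left out. Among members, CPM gave 1 and 11 calls in place of 4 and 5, and leaving out a library gave 0 to 4 and 1 to 3. Leaving out a library leaves fewer residual degrees of freedom, and the part of this in the counts was not tested. With CPM the log2 ratio turned to -0.50 for Trim28, -1.29 for Trim21, -1.37 for Trim3, -0.76 for Trim24, -1.13 for Trim27, -3.04 for Trim33 and 0.19 for Trim12a. It was 0.03 for Trim39 in the kallisto layout, and leaving out a library gave -0.29 to 0.28 for Trim27 and -0.18 to 0.34 for Trim33. The cause of the shifts was not tested. No paired analysis was possible because all samples belong to 1 group.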

Other observations

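Inside Trim30d, the processed pseudogene Gm16464 was counted as a gene of its own, with 1031, 657 and 714 expected counts in replicates 1, 2 and 3 and a mean of 64.7 TPM, against 191 TPM for Trim30d. Mid2, a family member under another symbol, had 0, 26 and 0 expected counts, and replicate 2, where it was detected, is the library with stromal RNA. Triml1 and Triml2 were undetected in the gene tables and had means of 3.79 and 1.55 TPM in the kallisto layout.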
